A study of Homo sapiens with 24 samples.

Results

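Nucleotide excision repair genes were described in 4 established human breast cancer lines under cisplatin. The members were 10 genes (XPA, ERCC1, ERCC2, ERCC3, ERCC4, ERCC5, ERCC6, ERCC8, DDB1 and RAD23B), taken as every probe whose annotated symbol was 1 of these names. This gave 19 of the 47322 probes on the array, and the brightest probe of each gene stood for it among the 14807 named genes tested. Of the 19 probes, 18 passed the filter on dim probes, 12 were detected on all 24 arrays, and 1 ERCC8 probe was detected on none. The rule names genes by function and uses no measured value, but the list was made with earlier results of these data known.

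BT549, HCC38, MDA-MB-157 and MDA-MB-231, lines from triple-negative tumours, each received 2 µM cisplatin, a platinum compound that crosslinks DNA bases. RNA was taken at 0, 24 and 72 h, which made 12 groups of 2 replicates, described by the submitters as independent, on 24 single-colour Illumina bead arrays. Each line is 1 established culture without a transgene in the labels, and cultures left untreated for 24 or 72 h were not analysed here, so the drug and the time in culture cannot be told apart. Each array measured RNA of a whole culture, so a change in the number of cells that make an RNA and a change in its amount per cell cannot be told apart either.

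Nucleotide excision repair removes bulky lesions, among them the crosslinks that cisplatin makes within a strand. The lesion is found in the whole genome by XPC with RAD23B and by DDB2 with DDB1, or in transcribed genes through the stalled polymerase, ERCC6 and ERCC8. The general transcription factor TFIIH, with the helicases ERCC3 and ERCC2, then opens the strands, XPA checks the lesion, ERCC5 and the pair ERCC1 and ERCC4 cut on either side of it, and polymerases and a ligase fill the gap. ERCC1 has long been studied as a marker of the response to platinum drugs, and the dimer with ERCC4 also acts in the repair of crosslinks between strands.

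Between 38.7% and 46.4% of probes were detected per array, and the correlation between replicates over the genes ran between 0.977 and 0.991. Agreement was poorest for MDA-MB-231 at 0 h, where 765 genes differed by over 2-fold between the replicates. The labelled cell type was compared with marker genes. ESR1, the oestrogen receptor, was detected on 0 arrays, PGR, the progesterone receptor, on 2 of 24 (both MDA-MB-157), and ERBB2 on all 24. The epithelial gene EPCAM was detected on 4 of 6 BT549 arrays and on all arrays of the other lines. Of the epithelial keratins, BT549 detected KRT8 on 5 of 6 arrays and KRT18 on 2 of 6, and MDA-MB-157 detected KRT19 on 5 of 6. The other lines detected each keratin on all arrays. The luminal gene GATA3 was detected on 6 HCC38, 5 BT549, 5 MDA-MB-231 and 0 MDA-MB-157 arrays, and FOXA1 on 6, 0, 1 and 0. VIM, a mesenchymal filament, was detected on all 24, but SPARC, also mesenchymal, on 2 of 6 MDA-MB-231 arrays and all others. PTPRC and CD3E, markers of blood cells, and CDH5, of endothelium, were detected on 0 arrays, and PECAM1, of endothelium, on 3 of 6 arrays each of MDA-MB-157 and MDA-MB-231.

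Between the lines, the highest and lowest means at 0 h lay 0.47 to 2.89 log2 apart per gene. Within single lines, the changes under the drug at 24 and 72 h against 0 h lay between -0.65 (RAD23B in HCC38) and 0.76 (ERCC6 in HCC38), with ERCC4 left out for its undetected arrays. At 0 h, 7 of the 10 genes differed between the 4 lines (limma F test, Benjamini-Hochberg adjusted p under 0.05), against 66.8% of all genes tested. Those 7 were ERCC1, RAD23B, ERCC5, ERCC2, ERCC8, ERCC6 and ERCC3. XPA, ERCC4 and DDB1 did not pass. With arrays scaled to their medians ERCC3 no longer passed (adjusted p = 0.129), and in the authors' deposited values neither ERCC3 (adjusted p = 0.109) nor ERCC6 (adjusted p = 0.228) did. Under cisplatin, none of the 10 genes passed in the average of the 4 lines at 24 h, where 0.0135% of all genes passed, or at 72 h, where 1.21% passed. The count of repair genes called between lines lay near the background, and a count of 0 of 10 lies near these low backgrounds too. Levels are given as log2 normalised intensity throughout, and they are compared between samples for 1 gene, not between genes, since probes differ in brightness.

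**Figure D1:**
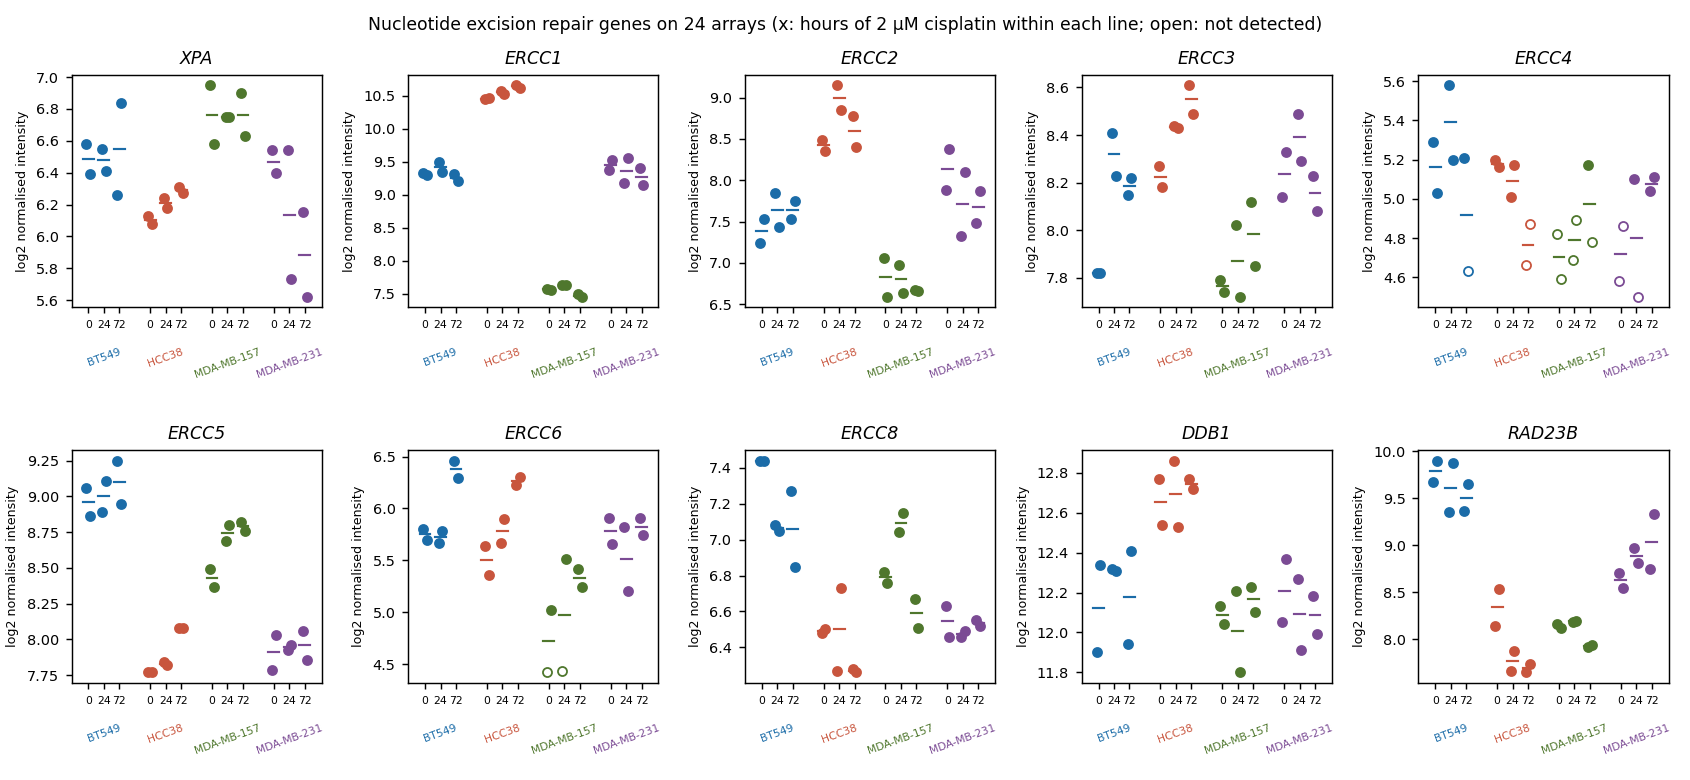
Log2 normalised intensity (vertical axes) of the 10 repair genes on 24 arrays, by line and, within a line, by hours of 2 µM cisplatin (horizontal axes). Points are arrays, filled where the probe was detected, and bars are means of 2. ERCC1 forms separate bands, with HCC38 between 10.45 and 10.66 and MDA-MB-157 between 7.45 and 7.63, and no time step within a line approaches that distance.

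ERCC1, the partner that places the ERCC4 nuclease on DNA, showed the widest spread between lines among the members. Its 0 h replicates read 10.45 and 10.46 in HCC38, 9.37 and 9.53 in MDA-MB-231, 9.33 and 9.30 in BT549, and 7.57 and 7.56 in MDA-MB-157. Over all 6 arrays of a line, HCC38 lay between 10.45 and 10.66 (median 10.55), and MDA-MB-157 between 7.45 and 7.63 (median 7.57). The 4 lines thus fell into 3 levels, with BT549 and MDA-MB-231 overlapping in the middle. HCC38 exceeded MDA-MB-157 by 2.89 log2 (SE 0.16, 7.43-fold, adjusted p = 2.3e-11) at 0 h, and the difference was 2.89 within each of the 2 slides. HCC38 also exceeded MDA-MB-231 by 1.01 (adjusted p = 4.0e-05), and the difference of BT549 from MDA-MB-231 was -0.13 (95% interval -0.47 to 0.20, adjusted p = 0.574), but 0.42 (adjusted p = 0.0453) in the authors' deposited values and 0.84 (adjusted p = 0.0675) with arrays scaled to their medians, which is 0.36 beyond the shift of all genes. The range of 2.89 between the highest and lowest line was larger than that of 92.3% of all genes, whose median range was 1.00.

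ERCC2, the TFIIH helicase that unwinds DNA around the lesion, had its highest and lowest means at 0 h in the same lines as ERCC1, HCC38 and MDA-MB-157. Its 0 h replicates read 8.49 and 8.35 in HCC38, 7.88 and 8.38 in MDA-MB-231, 7.24 and 7.53 in BT549, and 7.06 and 6.59 in MDA-MB-157. HCC38 stood above MDA-MB-157 without overlap, while HCC38 and MDA-MB-231 did overlap. The difference of HCC38 from MDA-MB-157 was 1.60 log2 (SE 0.26, 3.02-fold, adjusted p = 4.6e-05), and 1.29 and 1.90 within the slides. Of the neighbouring lines in the order, BT549 and MDA-MB-231 differed beyond their spread, by -0.75 (adjusted p = 0.0318). Without 1 array, BT549 0 h replicate 1 or MDA-MB-231 0 h replicate 2, that difference became -0.60 (adjusted p = 0.196) and -0.49 (adjusted p = 0.269). With arrays scaled to their medians it became 0.11 (adjusted p = 0.846), where all genes shifted by a median of 0.47, so ERCC2 lay -0.37 relative to that shift. The step of BT549 above MDA-MB-157, 0.56 (adjusted p = 0.0983), did not pass, but did at 1.37 (adjusted p = 0.00449) with median scaling, which is 0.94 beyond the shift of all genes, at 0.53 (adjusted p = 0.0234) in the authors' deposited values and at 0.56 (adjusted p = 0.0411) with array quality weights.

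RAD23B, which stabilises the damage sensor XPC, was highest in BT549. Its 0 h replicates read 9.67 and 9.90 in BT549, 8.71 and 8.55 in MDA-MB-231, 8.14 and 8.54 in HCC38, and 8.16 and 8.12 in MDA-MB-157. BT549 lay above every array of the other lines, also at 24 and 72 h, where its lowest value was 9.35 and the highest elsewhere was 9.33. At 0 h BT549 exceeded MDA-MB-231 by 1.15 log2 (adjusted p = 2.3e-04), HCC38 by 1.45 (adjusted p = 1.5e-05) and MDA-MB-157 by 1.64 (SE 0.21, 3.12-fold, adjusted p = 3.7e-06). Among the other 3 lines no pair of neighbours differed beyond the spread (adjusted p = 0.304 and 0.505). With arrays scaled to their medians the differences of BT549 from MDA-MB-231 and MDA-MB-157 were 2.12 and 2.62, or 1.64 and 2.18 beyond the shift of all genes, and both passed.

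ERCC5, the nuclease that cuts downstream of the lesion, and ERCC8, which recruits a ubiquitin ligase to stalled polymerases, were also highest in BT549. ERCC5 read 9.06 and 8.86 at 0 h in BT549, 8.49 and 8.37 in MDA-MB-157, 7.79 and 8.03 in MDA-MB-231, and 7.77 on both arrays of HCC38. It thus made 3 levels, and BT549 exceeded MDA-MB-157 by 0.53 (adjusted p = 0.0126), MDA-MB-231 by 1.04 (adjusted p = 3.6e-05) and HCC38 by 1.19 (SE 0.16, 2.28-fold, adjusted p = 6.3e-06). The 2 smaller ERCC5 steps rested on single arrays: the first was 0.43 (adjusted p = 0.116) without BT549 0 h replicate 1 and 0.47 (adjusted p = 0.09) without MDA-MB-157 0 h replicate 2. MDA-MB-157 exceeded MDA-MB-231 by 0.52 (adjusted p = 0.0153), which became 0.46 (adjusted p = 0.103) without MDA-MB-157 0 h replicate 1 and 0.40 (adjusted p = 0.124) without MDA-MB-231 0 h replicate 1. ERCC8 read 7.44 on both BT549 arrays at 0 h, 6.82 and 6.76 in MDA-MB-157, 6.63 and 6.46 in MDA-MB-231, and 6.48 and 6.50 in HCC38. BT549 stood apart from the other lines, which lay close together, and exceeded MDA-MB-157 by 0.65 (adjusted p = 0.00511) and HCC38 by 0.95 (SE 0.17, 1.93-fold, adjusted p = 1.7e-04). A second ERCC8 probe, for another transcript, gave 0.64 and 0.98 for the same pairs of lines. With arrays scaled to their medians, all genes shifted by 0.43 in BT549 against MDA-MB-157 and by 0.47 against MDA-MB-231. The differences of ERCC5 became 1.52 and 2.01, which are 1.08 and 1.53 beyond these shifts, and those of ERCC8 1.45 and 1.70 (1.02 and 1.23 beyond). For ERCC5 the difference of MDA-MB-157 from MDA-MB-231 was then 0.49 and no longer passed (adjusted p = 0.5), nor did it in the authors' deposited values (0.34, adjusted p = 0.194). There ERCC5 was higher in BT549 than in MDA-MB-157 by 0.95 (adjusted p = 2.0e-04).

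ERCC6, the chromatin remodeller that binds stalled polymerases, was lowest in MDA-MB-157. At 0 h it read 4.42 and 5.02 in MDA-MB-157, the first not detected, against 5.91 and 5.66 in MDA-MB-231. MDA-MB-157 was lower than MDA-MB-231 by -1.06 log2 (SE 0.28, adjusted p = 0.00456), but without the undetected MDA-MB-157 array the difference was -0.77 (adjusted p = 0.0888) and the F test between lines gave an adjusted p of 0.169. In the authors' deposited values it was -0.30 (adjusted p = 0.129), and with median scaling -0.87 (adjusted p = 0.165). ERCC3, the TFIIH translocase, differed by at most 0.47 between lines. MDA-MB-157 read 7.79 and 7.74 and BT549 read 7.82 on both arrays, and both lay below all arrays of HCC38 (8.27 and 8.18) and MDA-MB-231 (8.14 and 8.33). BT549 did not pass against HCC38 (limma adjusted p = 0.0532) or MDA-MB-231 (adjusted p = 0.0526), and its place depended on the scaling. Relative to the shift of all genes, BT549 minus MDA-MB-231 was 0.01 with median scaling and 0.15 in the authors' deposited values. On this measure ERCC3 in BT549 minus MDA-MB-157 was 0.54 and 0.51, and in BT549 minus HCC38 -0.22 and -0.13. Its F test between lines had an adjusted p of 0.0181, and of 0.0524 without MDA-MB-157 0 h replicate 2.

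XPA, ERCC4 and DDB1 did not pass the F test at 0 h (limma adjusted p between 0.0747 and 0.126). XPA, the scaffold that checks the lesion, read 6.13 and 6.08 in HCC38 and 6.95 and 6.58 in MDA-MB-157. The pair HCC38 and MDA-MB-157 taken alone passed, with a difference of -0.66 (adjusted p = 0.0335), which was -0.48 (adjusted p = 0.242) without MDA-MB-157 0 h replicate 1, -0.69 (adjusted p = 0.0898) without HCC38 0 h replicate 1 and -0.64 (adjusted p = 0.118) without HCC38 0 h replicate 2. With median scaling it was -0.15 (adjusted p = 0.848), and in the authors' deposited values -0.32 (adjusted p = 0.0876). DDB1, the adaptor between the damage sensor and its ubiquitin ligase, also passed for that pair alone, with a difference of 0.57 (adjusted p = 0.035). It did not with median scaling (0.80, adjusted p = 0.156), in the authors' deposited values (0.56, adjusted p = 0.0922), or without HCC38 0 h replicate 1 (0.46, adjusted p = 0.19), MDA-MB-157 0 h replicate 1 (0.62, adjusted p = 0.0835) or replicate 2 (0.53, adjusted p = 0.138). The DDB1 difference of BT549 from HCC38 missed the threshold (limma adjusted p = 0.0511) but passed in 13 of 33 alternatives, and the F test of DDB1 passed in 3 of 33. DDB1 lay between 11.80 and 12.86 on all 24 arrays, with the medians of the lines between 12.11 and 12.74. ERCC4, the nuclease partner of ERCC1, was dim: its probe was detected on 13 of 24 arrays, with values of 4.50 to 5.58. No array detected it in MDA-MB-157 at 0 h and 24 h, in MDA-MB-231 at 0 h or in HCC38 at 72 h, so only an upper limit on its level exists there and no fold change is given.

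With the mean of the 3 times in place of 0 h, a choice made after the 0 h values were seen, 9 of 10 genes differed between lines, against 81.2% of all genes. ERCC4 was the exception (adjusted p = 0.0958). By pairs of lines at 0 h, 5 of 10 repair genes differed between BT549 and HCC38 (41.3% of all genes), 5 between BT549 and MDA-MB-157 (40.8%), 4 between BT549 and MDA-MB-231 (34.7%), 7 between HCC38 and MDA-MB-157 (44.3%), 1 between HCC38 and MDA-MB-231 (40.2%) and 5 between MDA-MB-157 and MDA-MB-231 (38.1%). The 1 gene between HCC38 and MDA-MB-231 was ERCC1. The 7 between HCC38 and MDA-MB-157 numbered 3 without HCC38 0 h replicate 1 or without MDA-MB-157 0 h replicate 1, and the 5 between MDA-MB-157 and MDA-MB-231 numbered 2 without MDA-MB-157 0 h replicate 1.

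In the quantile-normalised means at 0 h, the order of the lines was shared within 2 pairs of members. From high to low, ERCC1 and ERCC2 ran HCC38, MDA-MB-231, BT549, MDA-MB-157, and ERCC5 and ERCC8 ran BT549, MDA-MB-157, MDA-MB-231, HCC38. Not every step in these orders was beyond the spread: for ERCC8 the steps below BT549 had adjusted p of 0.291 and 0.851. Other scalings gave other orders. In the authors' deposited values BT549 minus MDA-MB-231 was 0.42 for ERCC1 and -0.26 for ERCC2, and with median scaling HCC38 minus MDA-MB-157 was -0.09 for ERCC5 and 0.21 for ERCC8. The promoters of these 4 genes are printed because the members of each pair shared their order over the lines in the quantile-normalised means. They come from RefSeq on GRCh38.p14, run in the direction of transcription from 250 bases before the start to 50 after it, and matched all 10 members by symbol. Of the 3 starts listed for ERCC1, the one with the lowest coordinates is shown. Capitals mark each GC box (GGGCGG) and each CCAAT box (CCAAT) on either strand.
ERCC1, chr19:45423479-45423778, minus strand: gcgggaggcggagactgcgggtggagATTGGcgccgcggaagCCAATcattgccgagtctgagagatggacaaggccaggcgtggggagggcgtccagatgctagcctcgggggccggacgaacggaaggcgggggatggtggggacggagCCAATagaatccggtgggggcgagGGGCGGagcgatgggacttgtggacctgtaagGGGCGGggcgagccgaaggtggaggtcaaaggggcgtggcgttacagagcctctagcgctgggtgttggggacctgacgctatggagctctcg
ERCC2, chr19:45370524-45370823, minus strand: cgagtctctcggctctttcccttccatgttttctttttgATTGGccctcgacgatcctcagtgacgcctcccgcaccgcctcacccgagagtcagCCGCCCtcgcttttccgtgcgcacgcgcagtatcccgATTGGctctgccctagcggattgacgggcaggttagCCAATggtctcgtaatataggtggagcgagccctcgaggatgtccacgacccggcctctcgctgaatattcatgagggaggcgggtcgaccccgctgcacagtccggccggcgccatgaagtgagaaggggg
ERCC5, chr13:102845782-102846081, plus strand: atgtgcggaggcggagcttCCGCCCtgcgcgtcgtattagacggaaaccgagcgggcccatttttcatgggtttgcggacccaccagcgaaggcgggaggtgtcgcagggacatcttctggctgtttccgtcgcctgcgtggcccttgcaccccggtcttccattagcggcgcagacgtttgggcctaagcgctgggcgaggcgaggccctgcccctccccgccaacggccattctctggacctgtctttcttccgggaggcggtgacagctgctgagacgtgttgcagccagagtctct
ERCC8, chr5:60945021-60945320, minus strand: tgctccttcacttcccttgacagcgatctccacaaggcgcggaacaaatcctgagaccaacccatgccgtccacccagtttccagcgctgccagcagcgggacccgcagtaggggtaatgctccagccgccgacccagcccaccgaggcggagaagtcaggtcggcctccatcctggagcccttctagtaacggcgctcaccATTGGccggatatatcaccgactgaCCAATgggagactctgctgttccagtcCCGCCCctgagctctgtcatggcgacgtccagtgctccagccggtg
The printed ERCC1 promoter held 2 GC boxes and 3 CCAAT boxes, that of ERCC2 held 1 and 3, that of ERCC5 held 1 and 0, and that of ERCC8 held 1 and 2. The other 2 ERCC1 starts held 0 of either. Of the 15 starts listed for the 10 members, 9 held a GC box and 4 a CCAAT box, against 15786 and 12155 of the 35116 promoters in the table. None of the 15 held the TATA box letters TATAAA, found in 11.5% of all. These are matches of letters, and whether they bear on the order of the lines was not tested.

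ERCC1 had 4 probes, and they did not order the lines alike. Numbered by brightness, probes 1, 2 and 4 were highest in HCC38, and probe 3 was highest in BT549, as the plot of the ERCC1 probes shows. At 0 h probe 3 read 7.64 and 7.51 in BT549, against 6.79 and 6.70 in HCC38. Its difference of BT549 from HCC38 was 0.83 log2 (SE 0.24, adjusted p = 0.0093, fit over 20466 probes), while probe 1 gave -1.14 (adjusted p = 1.2e-05), probe 2 gave -1.44 (adjusted p = 1.7e-06) and probe 4 gave -1.12 (adjusted p = 9.4e-04). With median scaling the difference of ERCC1, read by probe 1, became -0.68 (adjusted p = 0.158), or -0.86 relative to the shift of all genes, and in the authors' deposited values -0.73 (adjusted p = 0.00133). All 4 probes were lowest in MDA-MB-157. Probes 1, 2 and 3 carry 1 RefSeq transcript in the annotation and probe 4 another. Probe sequences were not used here, so the exons they read are unknown. Probe 4 was detected on 1 of 6 MDA-MB-157 arrays, so its level there is only an upper limit.

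**Figure D2:**
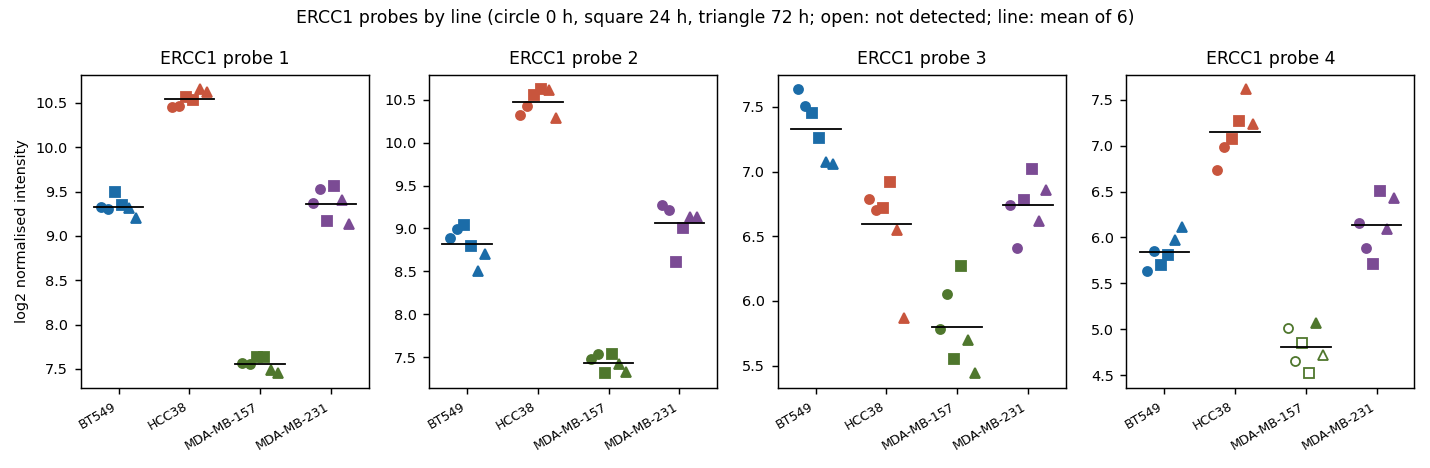
Log2 normalised intensity (vertical axes) of the 4 ERCC1 probes on the 6 arrays of each line (horizontal axes), with circles for 0 h, squares for 24 h, triangles for 72 h, open symbols for arrays without detection and lines for means of 6. Probe 3 puts BT549 on top, between 7.06 and 7.64, while the others put HCC38 on top.

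Under cisplatin the average changes of the repair genes lay on both sides of 0. Their median log2 change in the average of the 4 lines was 0.05 at 24 h, with 7 of 10 above 0, and -0.02 at 72 h, with 4 of 10 above 0, against medians of -0.01 and 0.00 over all genes, of which 48.4% and 49.7% were above 0. None of the 10 passed in the average at 24 h, at 72 h or between 72 h and 24 h (0.149% of all genes). In limma, 1, 4 and 1 of the 10 had an unadjusted p under 0.05 in these comparisons, against 8.75%, 15.5% and 10.3% of all genes. The median size of the change, without its sign, was 0.07 at 24 h and 0.13 at 72 h for the members, against 0.09 and 0.11 over all genes. With median scaling, which shifted all genes by -0.09 at 24 h and -0.08 at 72 h, 2 of 10 averages lay above 0 at 24 h (ERCC3 and ERCC4) and 3 at 72 h (ERCC3, ERCC5 and ERCC6). The averages that turned below 0 were those of ERCC1, ERCC2, ERCC5 and ERCC6 at 24 h and of DDB1 at both times, and none of the 10 passed.

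**Figure D3:**
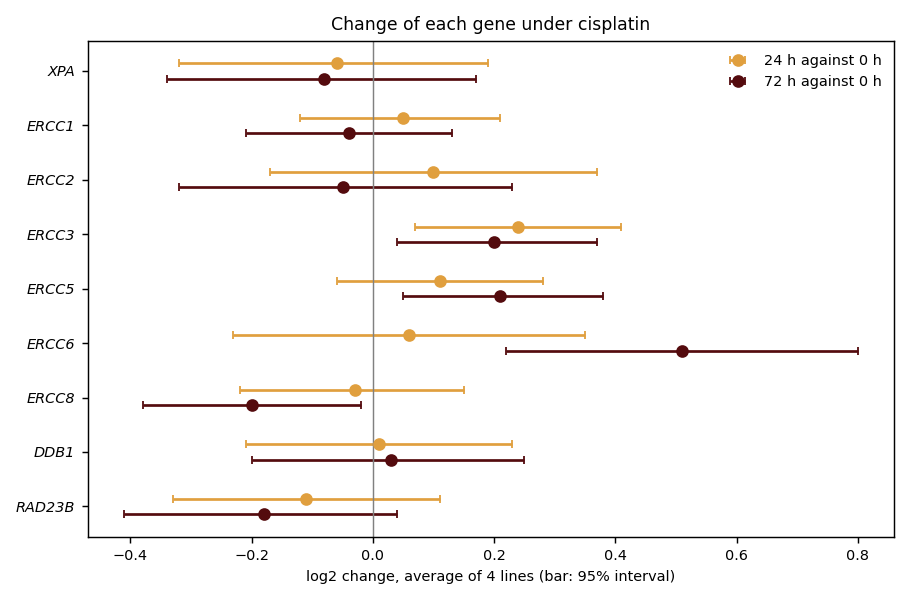
Log2 change of 9 repair genes, without ERCC4, in the average of the 4 lines (horizontal axis), at 24 h and at 72 h against 0 h, with 95% intervals. ERCC6 at 72 h lies farthest from 0, at 0.51 with an interval of 0.22 to 0.80, and the other averages lie between -0.20 and 0.24.

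With the processing used here, ERCC6 had the largest average change of the members. At 0, 24 and 72 h its replicates read 5.80 and 5.70, 5.67 and 5.78, and 6.46 and 6.29 in BT549. In HCC38 they read 5.64 and 5.36, 5.67 and 5.90, and 6.23 and 6.30. In both lines the 72 h arrays lay above all earlier ones. In MDA-MB-157 the values were 4.42 and 5.02, 4.43 and 5.51, and 5.42 and 5.24, where replicate 1 was not detected at 0 h or 24 h. In MDA-MB-231 they were 5.91 and 5.66, 5.82 and 5.20, and 5.91 and 5.74. The 72 h arrays of MDA-MB-157 overlapped its 24 h arrays, and those of MDA-MB-231 overlapped both earlier times. The average log2 change at 72 h was 0.51 (SE 0.14, 95% interval 0.22 to 0.80, 1.42-fold), with 0.62 in BT549, 0.76 in HCC38, 0.61 in MDA-MB-157 and 0.04 in MDA-MB-231, and 0.61 and 0.41 within the slides. Its limma adjusted p was 0.0743, which missed the threshold. Over 34 alternatives the adjusted p ran between 0.0293 and 0.733 and passed in 5, among them the fits with an offset of 50 (0.30, adjusted p = 0.0497), without MDA-MB-157 24 h replicate 1 or replicate 2 (0.51, adjusted p = 0.0356 each) and without MDA-MB-231 0 h replicate 1 (0.54, adjusted p = 0.0497). The size depended on how the background was handled: it was 0.20 with no background correction and 0.30 with an offset of 50. In the authors' deposited values, which may differ in more than background, it was 0.21, no larger in size than the -0.21 of RAD23B there. The F test of a difference in the ERCC6 change between lines gave an adjusted p of 0.768.

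Its partner in the same branch, ERCC8, had an average change of -0.20 at 72 h (95% interval -0.38 to -0.02, adjusted p = 0.255). The 72 h arrays read 7.27 and 6.85 in BT549, against 7.44 on both arrays at 0 h. In HCC38 they read 6.28 and 6.26, against 6.48 and 6.50. In MDA-MB-157 they read 6.67 and 6.51, against 6.82 and 6.76. In these 3 lines the groups did not overlap, and in MDA-MB-231 they did (6.55 and 6.52 at 72 h, against 6.63 and 6.46 at 0 h). At 72 h ERCC3 and ERCC6 also lay apart from 0 h in 3 lines, all higher, and RAD23B in 3 lines lower and 1 higher. The share of all genes that lay apart in this way is not given here, so the count only describes the values. Probe 2 of ERCC8 gave -0.26 (adjusted p = 0.21), and probe 3 was detected on 4 of 24 arrays, all of BT549, so no average is given for it. With median scaling the average of ERCC8 was -0.35, or -0.27 relative to the shift of all genes.

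RAD23B was lower at 72 h than at 0 h in 3 lines and higher in MDA-MB-231. Its means went from 9.78 to 9.50 in BT549 and from 8.14 to 7.93 in MDA-MB-157. In HCC38 it read 7.65 and 7.74 at 72 h, against 8.14 and 8.54 at 0 h, a change of -0.65 (SE 0.21, adjusted p = 0.252, where 0.081% of all genes passed). In MDA-MB-231 it read 8.75 and 9.33 at 72 h, against 8.71 and 8.55 at 0 h, a change of 0.41 (adjusted p = 0.563, where 0.00675% passed). The HCC38 groups did not overlap, nor did those of MDA-MB-231, where the gap was small. The F test of a change that differs between lines had an adjusted p of 0.416 at 72 h, where 0.0405% of all genes passed, so neither the changes nor their difference passed. The average was -0.18 (adjusted p = 0.441), with -0.41 and 0.04 within the slides, and -0.33 (-0.25 relative to all genes) with median scaling.

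**Figure D4:**
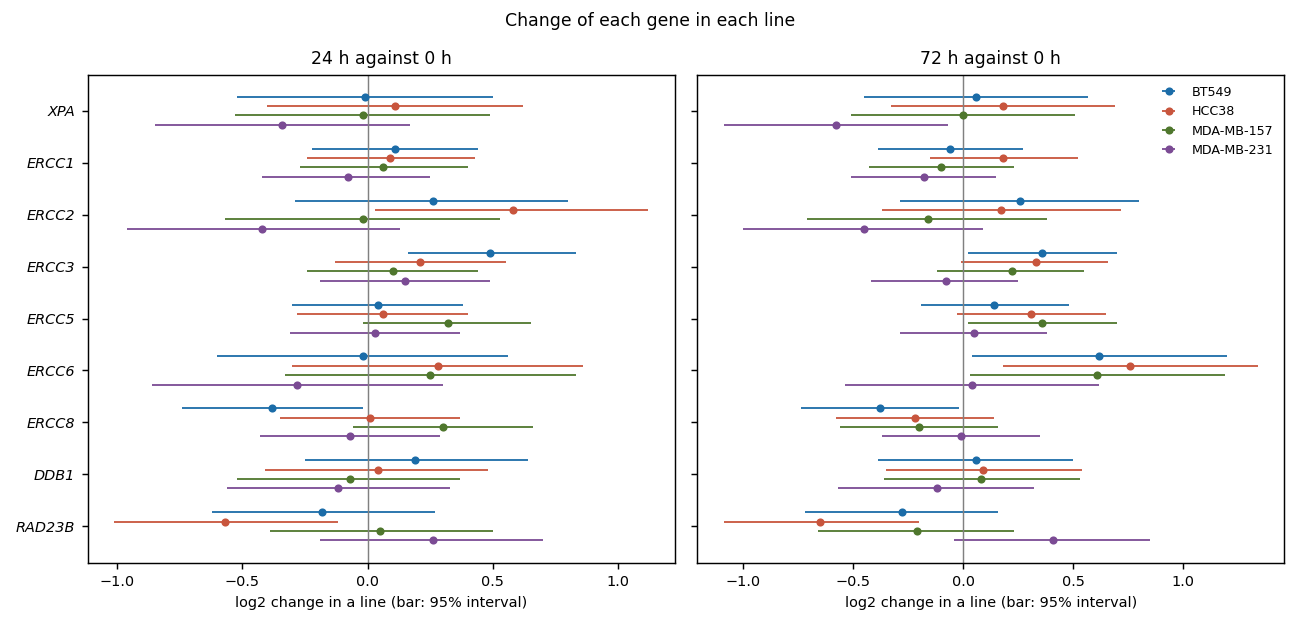
Log2 change of 9 repair genes, without ERCC4, in each line (horizontal axes), at 24 h (left) and 72 h (right) against 0 h, with 95% intervals. ERCC6 at 72 h lies at 0.61 to 0.76 in 3 lines and at 0.04 in MDA-MB-231, and RAD23B lies at -0.65 in HCC38 and at 0.41 in MDA-MB-231.

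Of the helicases of TFIIH, ERCC3 had an average change of 0.24 at 24 h (SE 0.08, 95% interval 0.07 to 0.41, adjusted p = 0.395) and 0.20 at 72 h (adjusted p = 0.215). With median scaling these were 0.10 and 0.06, or 0.19 and 0.14 beyond the shift of all genes. In BT549 its arrays read 7.82 on both at 0 h, 8.41 and 8.23 at 24 h, and 8.15 and 8.22 at 72 h, so both later times lay above 0 h. The change in BT549 at 24 h was 0.49 (adjusted p = 0.657, where 0.027% of all genes passed). ERCC2 had averages of 0.10 and -0.05, with line values at 24 h between -0.42 in MDA-MB-231 and 0.58 in HCC38. XPA averaged -0.06 and -0.08, and its largest change was in MDA-MB-231 at 72 h, where it read 6.15 and 5.62, against 6.54 and 6.40 at 0 h (-0.58, adjusted p = 0.478).

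Of the nucleases, ERCC5 had an average change of 0.21 at 72 h (SE 0.08, 95% interval 0.05 to 0.38, adjusted p = 0.186) and was above 0 in all 4 lines, between 0.05 and 0.36. With median scaling it was 0.06, which is 0.14 above the shift of all genes. The agreement over lines depended on the scaling. Relative to the shift of all genes, ERCC5 in BT549 at 72 h was -0.14 with median scaling and -0.29 in the authors' deposited values. In the other lines it stayed above 0 on this measure. ERCC1, read by probe 1, stayed within narrow intervals in the average: 0.05 (95% interval -0.12 to 0.21) at 24 h and -0.04 (-0.21 to 0.13) at 72 h. Its means in BT549 were 9.31 at 0 h and 9.25 at 72 h, but this also depended on the scaling. Relative to the shift of all genes, ERCC1 in BT549 at 72 h was -0.33 with median scaling and -0.47 in the authors' deposited values. The other lines lay between -0.06 and 0.11 on this measure. Probe 3 of ERCC1 had an average of -0.31 at 72 h and did not pass (adjusted p = 0.227). Probe 4 had higher means at 72 h than at 0 h, 6.04 against 5.75 in BT549, 7.43 against 6.86 in HCC38 and 6.26 against 6.02 in MDA-MB-231. Its replicates at 0 h and 72 h lay 0.20 and 0.15 apart in BT549, 0.25 and 0.38 in HCC38, and 0.27 and 0.34 in MDA-MB-231. In MDA-MB-157 it was detected on 0 arrays at 0 h and 1 at 72 h. Probe 2 went from 8.94 to 8.60 in BT549, 10.38 to 10.46 in HCC38, 7.50 to 7.38 in MDA-MB-157 and 9.25 to 9.13 in MDA-MB-231. DDB1 averaged 0.01 at 24 h and 0.03 at 72 h. Within single lines, 0 repair genes passed at 24 h or 72 h against 0 h, or at 72 h against 24 h. The shares of all genes that passed in these 3 comparisons were 0.027%, 1.01% and 0.149% in BT549, 0%, 0.081% and 0.0473% in HCC38, 0%, 0.081% and 0.128% in MDA-MB-157, and 0%, 0.00675% and 0% in MDA-MB-231. At 24 h, 0% of all genes also passed the test of a change that differs between lines. At an unadjusted p under 0.05 in limma, the members in the same 3 comparisons numbered 2, 3 and 1 in BT549, 2, 2 and 0 in HCC38, 0, 2 and 1 in MDA-MB-157, and 0, 1 and 0 in MDA-MB-231. The shares of all genes at that p were 5.54%, 12.5% and 7.25% in BT549, 4.42%, 10.3% and 5.81% in HCC38, 4.25%, 6.88% and 7.71% in MDA-MB-157, and 8.57%, 9.35% and 2.86% in MDA-MB-231. The lowest unadjusted p among the members in a single line was 0.00647, for RAD23B in HCC38 at 72 h and for ERCC3 in BT549 at 24 h.

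The rest of the pathway was read from a list of 40 genes, of which 38 were tested: recognition factors, other TFIIH subunits and gap-filling polymerases, clamps and ligases. None of the 38 passed in the average at 24 h, 72 h or between these times, and 12 (31.6%) had an unadjusted p under 0.05 at 24 h and at 72 h, against 8.75% and 15.5% of all genes. XPC, the sensor of helix distortion, had average changes of -0.08 at 24 h and -0.15 at 72 h (adjusted p = 0.894 and 0.646). DDB2, the ultraviolet damage sensor and a known p53 target, had average changes of 0.16 and 0.22 (adjusted p = 0.704 and 0.362). Of 10 recognition genes, 4 were above 0 at 24 h and 3 at 72 h, and of 8 TFIIH genes, 2 and 5. Of 20 gap-filling genes, most of which also serve DNA replication, 18 were above 0 at 24 h (median 0.19) and 17 at 72 h (median 0.15). Over all genes, 48.4% and 49.7% were above 0 at these times. Median scaling shifted all genes by -0.09 and -0.08, and the counts of these lists are not given under it. Of the gap-filling genes, POLD3, a polymerase delta subunit, had 0.56 (adjusted p = 0.212) at 24 h. POLE, the polymerase epsilon catalytic subunit, had 0.39 (adjusted p = 0.0931) at 72 h. LIG3, a ligase, went the other way, with -0.42 at 72 h and values in the single lines between -0.87 and -0.14. These genes were named after their values were seen. Between the lines at 0 h, 29 of the 38 genes (76.3%) differed, near the 66.8% of all genes.

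The genes whose pattern over the 12 group means was most like each member were found from the root mean square difference of centred log2 values. For ERCC1 the nearest was TRAPPC8 (0.16 log2, against an own SD of 1.07), for ERCC2 TAF1C (0.18, own SD 0.70), for RAD23B DCTN6 (0.19, own SD 0.70) and for ERCC5 TRIP6 (0.12, own SD 0.49). Among the members, ERCC1 and ERCC2 were each other's nearest, at 0.45, but 76 genes lay nearer to ERCC1 than ERCC2 did, and 598 nearer to ERCC2 than ERCC1 did. ERCC5 and ERCC8 were also each other's nearest, at 0.29, with 265 genes nearer to ERCC5 and 810 nearer to ERCC8. These are descriptions over 12 groups that share lines.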

How the data were processed

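RNA from 4 lines at 3 times was hybridised to 24 Illumina arrays, 12 on each of 2 slides, with 1 array of every group per slide. The authors deposited non-normalized intensity per probe, with a detection p-value beside each, per the file headers; software is not given in the sources used here. The authors also deposited log2 values whose identifiers did not match their values. They were matched to the intensities by value (47319 of 47322 probes) and used as an alternative. Symbols came from the platform annotation, updated by Entrez identifier: 30112 probes had 1 symbol, 8 several and 17202 none, and 1 probe named for ERCC6 together with another gene was not used.

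Background was corrected with normexp in limma 3.58.1 (R 4.3.3), with negative controls inferred from detection p and an offset of 16, followed by log2 and quantile normalization. A probe needed a detection p under 0.05 on 2 or more arrays, and 1 probe stood for a gene. One mean per group was fitted over all 14807 genes (12 residual and 6.87 prior degrees of freedom), with a threshold of 0.05 on the p adjusted by Benjamini-Hochberg. The code was tested on simulated data. With 2 arrays per group, their number sets the precision. 0 per-sample columns were left out. All members are named, XPC and DDB2 of the rest of the pathway, and any other gene of it that passed in an average, with the genes nearest in pattern. POLD1, POLD3, POLE, LIG3 and the neighbours of ERCC1 and ERCC2 were named after their values were seen. The members, lists and tests were chosen with earlier results of these data known. Alternatives covered background, scaling, filter, probe choice, array weights, slide, replicate number, and each array left out.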

Additional observations from a re-analysis of the deposited data

How the results depend on the processing

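Leaving out 1 array at a time gave 0 to 1 repair genes called at 72 h against 0 h in the average (the 1 was ERCC6), against 0 with all arrays. It gave 0 to 3 other pathway genes at 24 h, 0 to 3 at 72 h and 0 to 1 between 72 h and 24 h, and for the lines at 0 h as few as 3 repair genes between HCC38 and MDA-MB-157 and 2 between MDA-MB-157 and MDA-MB-231. An offset of 50 called 1 repair gene at 72 h, ERCC6 (0.30, adjusted p = 0.0497). The replicate numbers were not taken to pair the samples, since only 7 of 12 pairs of deviations correlated above 0.1 (-0.05 to 0.50), although 11 of 12 lay above 0 and the 3 of BT549 at 0.38 to 0.50. With the replicate number as a block within each line, 1 repair gene, ERCC6, was called at 72 h (0.51, adjusted p = 0.0293), as was 1 other pathway gene, POLD1 (0.36, adjusted p = 0.0442). No replicate block is possible between lines at 0 h. With median scaling the counts were 3 for BT549 and HCC38 (5 in the report), 2 for HCC38 and MDA-MB-157 (7) and 2 for MDA-MB-157 and MDA-MB-231 (5), and with the authors' values the last 2 pairs gave 3 and 2. Median scaling shifted all genes by a median of up to 0.47 between lines and -0.47 within BT549. ERCC1 in BT549 against MDA-MB-231 reversed to 0.42 (adjusted p = 0.0453) in the authors' values, against -0.13, and ERCC2 in the same lines to 0.11 with median scaling (adjusted p = 0.846), against -0.75. The cause was not tested. The other called differences of single members kept their direction under every setting run. Over single genes, leaving out arrays ended 25 calls, made 15 and kept the side of the threshold and the direction 5725 times, and other settings ended 25, made 22 and kept 2200. Over all genes, the 179 called at 72 h in the average became 0 with median scaling and 504 with the replicate block, and 31 to 541 with an array left out. The 2 at 24 h became 0 and 11 (0 to 130), the 22 between the times 0 and 55 (0 to 63), the 149 in BT549 at 72 h 44 and 382 (15 to 243), and the 6 with differing changes at 72 h 1 and 65 (0 to 323). The highest of these without an array came at 72 h, at 24 h and for differing changes without MDA-MB-231 0 h replicate 1, which also called 671 and 751 genes in MDA-MB-231 at 24 h and 72 h, against 0 and 1. Lines at 0 h called at least 2339 genes in every pair (median scaling, MDA-MB-157 and MDA-MB-231, against 5636). A filter of detection p under 0.01 on at least 12 arrays left 9 members, without ERCC4. Dim probes limit ERCC4 and ERCC6.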

Other observations

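ERCC2 and ERCC1 lie close together on chromosome 19, with PPP1R13L and POLR1G between them in the RefSeq order, so their neighbours were looked at after the values of both genes had been seen. At 0 h PPP1R13L, a p53-binding protein, was higher in HCC38 (7.90) than in MDA-MB-157 (5.73), a difference of 2.17 log2 (limma adjusted p = 5.7e-08). POLR1G, an RNA polymerase I subunit, had 6.49 and 4.83 in these lines (1.65, adjusted p = 2.0e-05). On the side of ERCC1, FOSB, a subunit of AP-1, had 10.74 and 5.13 (5.61, adjusted p = 7.1e-05). VASP, an actin regulator, had 7.80 and 5.83 (1.97, adjusted p = 6.6e-06), and OPA3, a mitochondrial protein, 7.85 and 6.34 (adjusted p = 0.0032). On the side of ERCC2, KLC3, a kinesin light chain, had 6.12 and 5.32 (0.80). MARK4 (0.21, adjusted p = 0.562), RTN2 (0.69, adjusted p = 0.101) and PPM1N (0.03, adjusted p = 0.929) did not pass. MARK4 (line means 4.69 to 4.90) and PPM1N (4.50 to 4.78) were so dim that a difference might not show. Of the 9 neighbours tested in this stretch, 6 were higher in HCC38 and passed, and 22.6% of all genes were higher in HCC38 and passed. These were the lines in which ERCC1 and ERCC2 lay farthest apart. Over all lines, PPP1R13L and VASP had the order of ERCC1, as did the means of RTN2 and MARK4, which did not pass. FOSB and OPA3 shared its highest and lowest line. POLR1G was instead highest in BT549 (6.75), and KLC3 was lowest there (4.38). POLR1G in MDA-MB-157 (4.83) and KLC3 in BT549 were as dim as MARK4 and PPM1N, or dimmer. BLOC1S3, EXOC3L2 and CKM were not tested, since none of their probes passed the filter or none was named.

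DDB1 had 3 probes. Probes 2 and 3, dimmer than probe 1, gave average changes of 0.05 and -0.18 at 24 h and of -0.03 and 0.10 at 72 h, and neither passed.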
